A study of Mus musculus with 8 samples.

Results

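Lgr5, Lgr6, Cd34, Bmp2, Bmp4 and Nog, 6 genes known from the stem cells of the hair follicle and from the signals around them, were followed in belly skin of 8-month-old mice. The members were all probe sets that the array annotation assigns to exactly 1 of these symbols, which gave 8 probe sets out of 45037 that were not array controls. Lgr5 and Lgr6 had 2 probe sets each and the other 4 genes had 1 each. The transgenic group held 4 mice that carry a transgene for human hurpin, a cathepsin L inhibitor (females 7 and 84, males 11 and 17). The wildtype group held 3 mice (males 26 and 28, female 29). Strain, the promoter that drives the transgene and the number of founder lines were not given in the sources used here. Total RNA was hybridised to oligonucleotide arrays with 1 animal per array, except that wildtype 29 was measured on 2 arrays, which were averaged. Levels are log2 of signal intensity plus 21.8, so the scale has a floor at 4.45.

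The hair follicle cycles through growth, regression and rest, and regrows from stem cells of the bulge and of the germ below it. LGR5 and LGR6 are receptors for R-spondins, secreted proteins that strengthen Wnt signalling. Lgr5 marks cycling stem cells of the bulge and germ, and Lgr6 marks cells of the isthmus above them. CD34 is a surface sialomucin of mouse bulge cells that is also made by endothelium, mast cells and fibroblasts. BMP2 and BMP4 are secreted ligands that signal through SMAD proteins and hold bulge cells at rest, and noggin, the product of Nog, binds these ligands and blocks them.

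Summed intensity per array ran from 34785081 to 37857733. Precision was limited by how few arrays there were. Markers of skin keratinocytes were high on every array: Krt14, a keratin of basal cells, was at 14.20 ± 0.11 in the transgenic animals (SD, n = 4) and at 14.18 ± 0.12 in the wildtype animals (SD, n = 3). Hair keratins differed far more between animals than between groups. The hair keratin level, the mean log2 intensity over 12 of 13 listed hair shaft keratins, was 12.42, 11.66, 9.06 and 12.37 for transgenic animals 7, 11, 17 and 84, and 6.80, 13.04 and 13.20 for wildtype animals 26, 28 and 29. Both the lowest and the highest level belonged to wildtype animals, and the group means were 11.37 ± 1.58 and 11.01 ± 3.65 (SD, n = 4 and 3; exact permutation p = 0.857, 2-sided). For the control gene Gapdh the signal of the 3' probe set was divided by that of the 5' one, which measures how far labelled target reaches along a transcript. This Gapdh ratio was 13.8, 1.45, 4.68 and 17.2 for transgenic animals 7, 11, 17 and 84, and 1.03 to 1.14 for the wildtype animals. Each transgenic ratio was above each wildtype one, so a fit with both ratio and group cannot cleanly separate them. In whole skin, fewer cells of a type and less RNA per cell cannot be told apart.

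No member probe set passed the comparison of transgenic with wildtype skin, which asked whether these genes differ in mice with the transgene. Of the 8 probe sets 6 passed the filter on low values, and limma called 0 of the 6 at an adjusted p under 0.05, against 0.0148% of all 27022 probe sets tested. At an unadjusted p under 0.05 limma gave 0 of the 6, where the share over all probe sets was 11.7% (3.77% higher and 7.93% lower in transgenic skin). Transgenic and wildtype values overlapped in each of the 8, where 11.3% of all probe sets tested had no overlap.

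**Figure D1:**
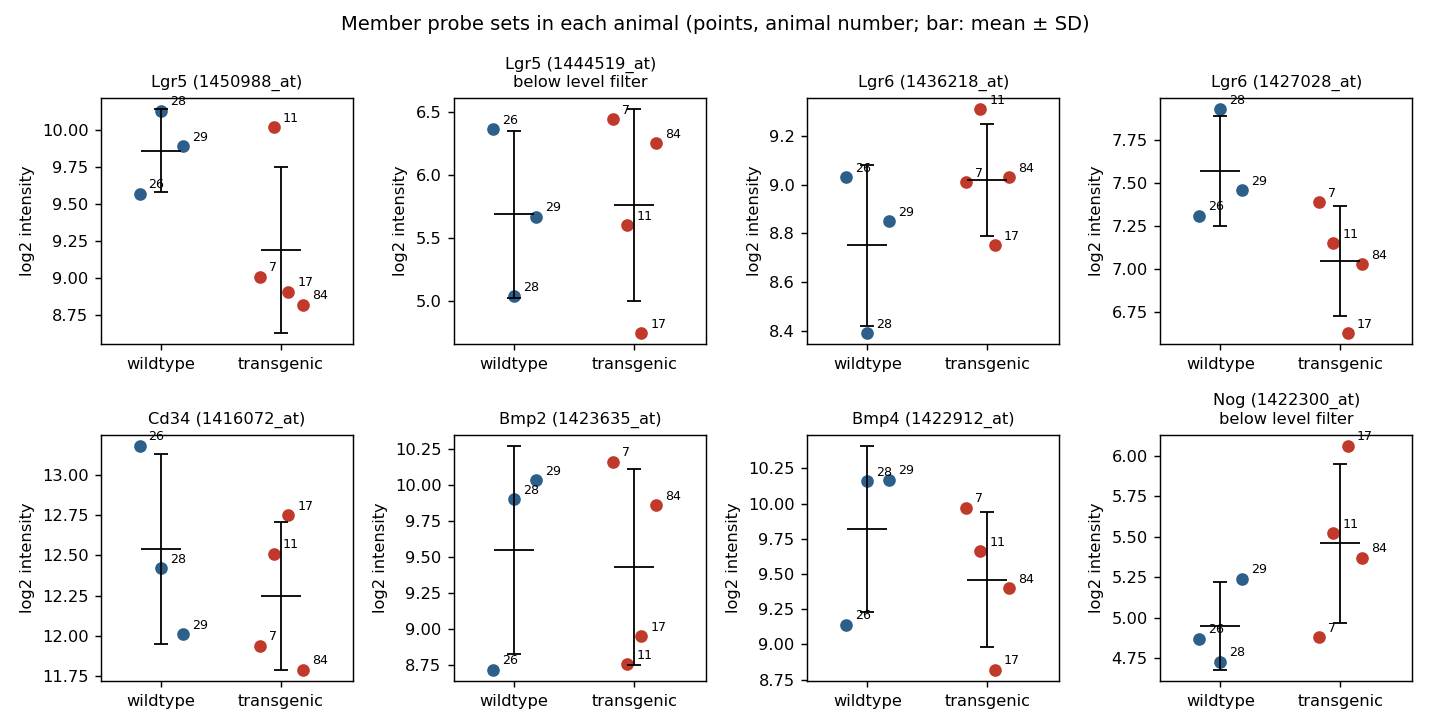
Log2 intensity of the 8 member probe sets in each animal, with the animal number beside each point (wildtype blue, n = 3; transgenic red, n = 4) and the mean ± SD as bars. The groups overlap in every panel, and in Lgr5 (1450988_at) transgenic 11 stands with the wildtype animals at 10.02.

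Lgr5 lay lower in 3 of the 4 transgenic animals. Its abundant probe set, 1450988_at, measured 9.01, 10.02, 8.91 and 8.82 in transgenic 7, 11, 17 and 84, and 9.57, 10.13 and 9.89 in wildtype 26, 28 and 29. Transgenic 7, 17 and 84 stood below each wildtype animal, and transgenic 11 stood within the wildtype range. The means were 9.19 ± 0.56 and 9.86 ± 0.28 (SD, n = 4 and 3), a log2 difference of -0.67 (SE 0.301, 95% interval -1.35 to 0.01, limma adjusted p = 0.435). The 3 low animals were the 3 with the highest Gapdh ratios, 4.68 to 17.2. After adjustment for the log2 of the Gapdh ratio the Lgr5 difference was 0.09 in place of -0.67. Without transgenic 11 it was -0.95 (limma adjusted p = 0.064), in a fit that called 269 probe sets over the whole table, against 4 with all animals. Without transgenic 7 and 84, which had the highest ratios, the difference was -0.39 (limma adjusted p = 0.907). The other Lgr5 probe set, 1444519_at, was below the level filter, between 4.75 in transgenic 17 and 6.44 in transgenic 7. Its wildtype values were 6.36, 5.04 and 5.67, inside that span, and its log2 difference was 0.07 (exact permutation p = 0.971, 2-sided, where 4 against 3 animals cannot give less than 0.0571). It turned to -0.66 after the same adjustment. The Lgr5 probe sets had a Pearson r of -0.28 with each other over the 7 animals, so they did not order the animals alike.

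Lgr6 gave opposite signs from its 2 probe sets, neither of which passed. Probe set 1436218_at measured 9.01, 9.31, 8.75 and 9.03 in transgenic 7, 11, 17 and 84, and 9.03, 8.39 and 8.85 in wildtype 26, 28 and 29. The lowest value was that of wildtype 28 and the others lay close together, with a log2 difference of 0.27 (SE 0.211, 95% interval -0.21 to 0.75, limma adjusted p = 0.639). Probe set 1427028_at measured 7.39, 7.15, 6.63 and 7.03 in the transgenic animals and 7.31, 7.93 and 7.46 in the wildtype animals. Here wildtype 28 was the highest animal, 3 of 4 transgenic animals stood below each wildtype animal, and the log2 difference was -0.51 (SE 0.263, 95% interval -1.11 to 0.09, adjusted p = 0.482). The r between the Lgr6 probe sets was -0.45 over 7 animals. Which part of the Lgr6 transcript each one reads is not given in the sources used here.

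**Figure D2:**
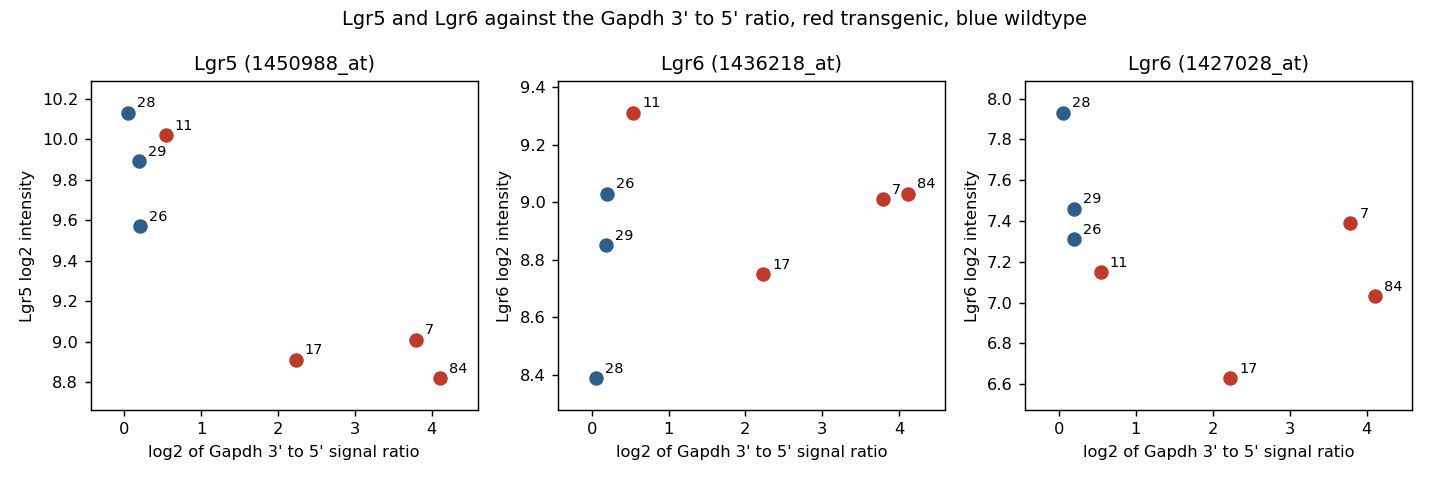
Log2 intensity of Lgr5 (1450988_at) and of both Lgr6 probe sets against the log2 ratio of 3' to 5' Gapdh signal, 1 point per animal (wildtype blue, transgenic red). For Lgr5 the animals with a log2 ratio of 2.23 or more lie between 8.82 and 9.01 and the others between 9.57 and 10.13, while the Lgr6 values of these sets of animals overlap.

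Cd34 had its highest level in a wildtype animal and its lowest in a transgenic one, with wide overlap. It measured 11.94, 12.51, 12.75 and 11.79 in transgenic 7, 11, 17 and 84, and 13.18, 12.42 and 12.01 in wildtype 26, 28 and 29. The 3 highest animals were wildtype 26 and the transgenic males 17 and 11. The log2 difference was -0.29 (SE 0.316, 95% interval -1.01 to 0.43, limma adjusted p = 0.744). It was 0.26 after adjustment for the Gapdh ratio and 0.03 without wildtype 26.

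The BMP ligands spread as widely within each group as between them. Bmp2 measured 10.16, 8.76, 8.95 and 9.86 in transgenic 7, 11, 17 and 84, and 8.72, 9.90 and 10.03 in wildtype 26, 28 and 29. Males transgenic 11, transgenic 17 and wildtype 26 lay between 8.72 and 8.95, while the 3 females and male wildtype 28 lay between 9.86 and 10.16, so both groups reached from low to high. Its log2 difference was -0.12 (SE 0.424, 95% interval -1.08 to 0.84, limma adjusted p = 0.934). The sign of this difference turned without transgenic 11, transgenic 17, wildtype 28 or wildtype 29, with values up to 0.12. After adjustment for the Gapdh ratio it was -1.07, and without transgenic 7 and 84 it was -0.70.

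Bmp4 measured 9.97, 9.66, 8.82 and 9.40 in the transgenic animals in the same order, and 9.14, 10.16 and 10.17 in the wildtype animals. Wildtype 28 and 29 were the highest, while wildtype 26 and transgenic 17 were the lowest. The log2 difference of Bmp4 was -0.36 (SE 0.332, 95% interval -1.12 to 0.39, adjusted p = 0.69). It ranged from -0.70 without wildtype 26 to -0.15 without transgenic 17, and no alternative brought it past the threshold.

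Nog, the antagonist, was close to the floor of the scale. Its intensity was 7.7, 24.2, 45.1 and 19.5 in transgenic 7, 11, 17 and 84, 7.4 and 4.7 in wildtype 26 and 28, and 13.5 and 18.9 on the arrays of wildtype 29. On 6 of the 8 arrays it lay below 21.8, the 20th percentile of all values in the table, and detection calls were not used here. The log2 difference of 0.51 (exact permutation p = 0.114) compared 5.46 ± 0.49 with 4.95 ± 0.27 (SD, n = 4 and 3), both below the level filter of 6.45. A difference in Nog was therefore not measurable at this signal.

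**Figure D3:**
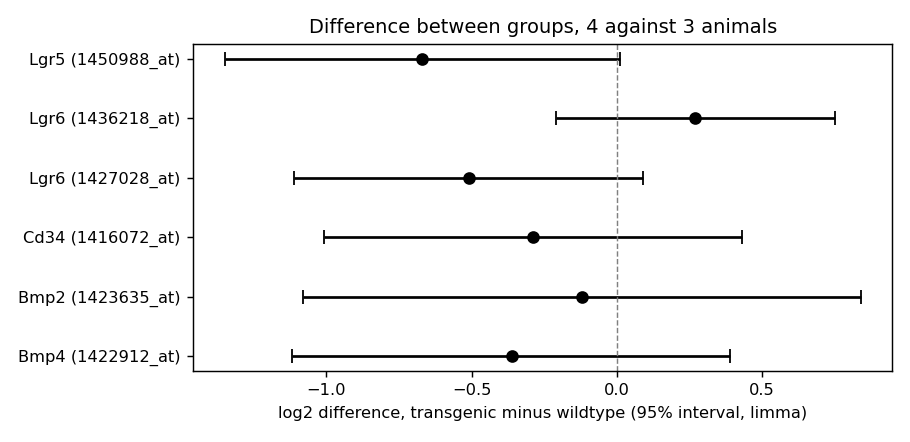
Log2 difference of transgenic minus wildtype animals for the 6 member probe sets past the level filter, with 95% intervals from limma (4 against 3 animals). Each interval includes 0, and that of Lgr5 (1450988_at) reaches from -1.35 to 0.01.

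Wildtype 29 was measured on a repeat array. The second array differed from the first by 0.44 in Lgr5 (1450988_at), 0.49 in Lgr6 (1427028_at), -0.25 in Cd34, 0.22 in Bmp2 and less than 0.01 in Bmp4, against a median absolute difference of 0.19 over all probe sets past the filter. Sex was mixed in both groups. The interaction of group and sex, tested with limma, was called in 0 of the 6 member probe sets and in 0% of all 27022, with 772 (2.86%) at an unadjusted p under 0.05. Among the 6 the interaction ranged from -0.60 for Lgr5 to 0.48 for Lgr6 (1427028_at), with unadjusted p from 0.36 to 0.964. A single wildtype female entered this test.

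Across animals Bmp4 was higher and Cd34 lower where hair keratins were high. In a limma fit with group and hair keratin level together, the slope of Bmp4 was 0.18 log2 per log2 of hair keratin (SE 0.04, adjusted p = 0.0389), that of Cd34 was -0.17 (SE 0.04, adjusted p = 0.04) and that of Bmp2 was 0.22 (SE 0.06, adjusted p = 0.0864). Slopes were called in 2 of the 6 member probe sets, against 4.34% of all 27022 (2.7% higher and 1.64% lower), and in 0 of the 6 without group in the model, against 2.14%. Each call was lost when any 1 of 5 animals was left out. Bmp4 was no longer called without transgenic 17 (adjusted p = 0.169), transgenic 84 (0.0517), wildtype 26 (0.329), wildtype 28 (0.098) or wildtype 29 (0.16). Cd34 was no longer called without transgenic 7 (0.0591), transgenic 17 (0.174), transgenic 84 (0.0633), wildtype 26 (0.329) or wildtype 29 (0.192). Bmp2 was called without transgenic 11 (0.00879). The slopes themselves kept their signs in each of these fits, between 0.16 and 0.27 for Bmp4, between -0.25 and -0.16 for Cd34 and between 0.19 and 0.28 for Bmp2. Without both transgenic 17 and wildtype 26 the level ran just from 11.66 to 13.20 over 5 animals. The slope was then 0.07 for Bmp4 (adjusted p = 0.928), -0.94 for Cd34 (0.0785), 1.69 for Bmp2 (0.0255) and -1.49 for Lgr5 (1450988_at; 0.0391). With group in the model these slopes rested largely on transgenic 11, at 11.66, against transgenic 7 and 84, at 12.42 and 12.37. Their Gapdh ratios also differed, 1.45 against 13.8 and 17.2, so level and ratio cannot be told apart there. The number of probe sets called over the whole table fell from 1172 to 179 without wildtype 26 and to 338 without transgenic 17.

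The animals read in order of their hair keratin level show the same. Cd34 was 13.18 in wildtype 26 and 12.75 in transgenic 17, the 2 animals with the lowest level, and between 11.79 and 12.51 in the other 5. Bmp4 was 9.14 and 8.82 in those 2 animals and between 9.40 and 10.17 in the others. Pearson r with the hair keratin level over 7 animals was 0.81 for Bmp4 (exact permutation p = 0.0194, adjusted over all probe sets 0.218; Spearman rho 0.93, exact p = 0.00675). For Bmp2 it was 0.79 (exact permutation p = 0.0135, adjusted 0.197; rho 0.86, exact p = 0.0238). For Cd34 it was -0.86 (exact permutation p = 0.00794, adjusted 0.172; rho -0.68, exact p = 0.11). Such relations were computed for 8 member probe sets, and the exact permutation test called 0% of the 27022 probe sets after adjustment, with 4344 (16.1%) at an unadjusted p under 0.05. Without transgenic 17 and wildtype 26, which were farthest from the median level, r was 0.73 for Bmp4, 0.77 for Bmp2 and -0.24 for Cd34 (n = 5). The 2 measures differed here: without those animals the correlation was weaker for Cd34 and largely kept for Bmp4, whereas in the limma fit with group the slope was steeper for Cd34, -0.94, and smaller for Bmp4, 0.07.

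Neither Lgr5 nor Lgr6 followed the hair keratins clearly. For Lgr5 (1450988_at) r was 0.22 (exact permutation p = 0.627, adjusted 0.86; rho 0.36, exact p = 0.444) and 0.19 without the same 2 animals. For Lgr6 r was -0.20 in 1436218_at (exact permutation p = 0.629, adjusted 0.86; rho -0.39, exact p = 0.396) and 0.45 in 1427028_at (exact permutation p = 0.328, adjusted 0.676; rho 0.71, exact p = 0.0881), and without those 2 animals -0.82 and 0.68. The probe sets near the floor gave -0.07 for Lgr5 (1444519_at; exact permutation p = 0.886; rho 0, exact p = 1) and -0.18 for Nog (exact permutation p = 0.676; rho -0.32, exact p = 0.498), and -0.33 and -0.59 without them.

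**Figure D4:**
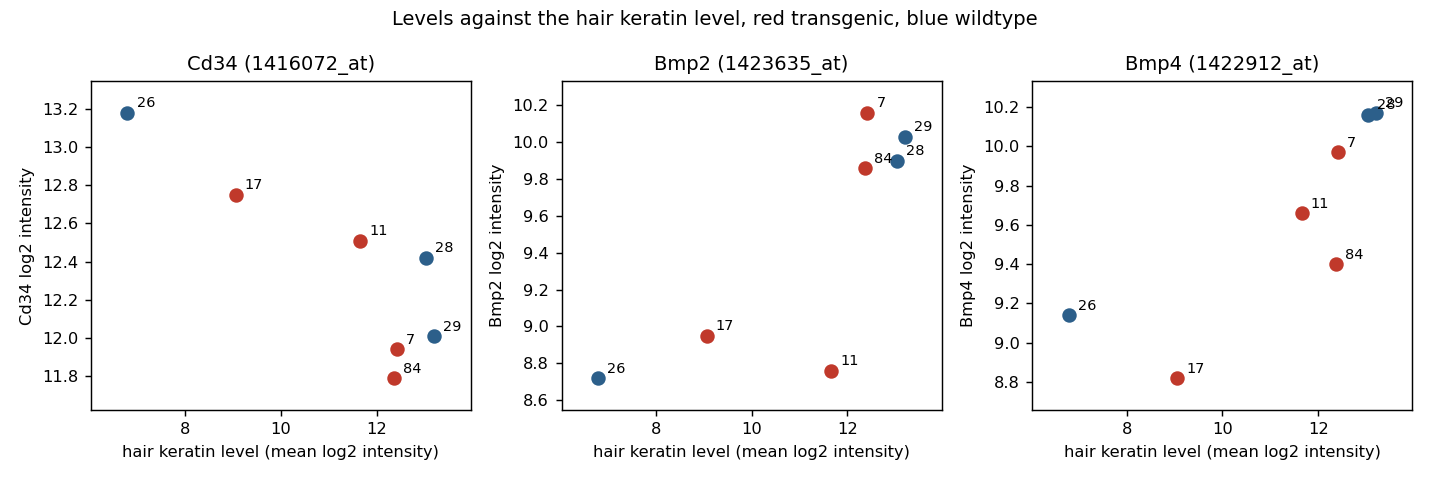
Log2 intensity of Cd34, Bmp2 and Bmp4 against the hair keratin level (mean log2 intensity of 12 hair keratins), 1 point per animal (wildtype blue, transgenic red). Wildtype 26 and transgenic 17 stand apart at levels of 6.80 and 9.06, with high Cd34 and low Bmp2 and Bmp4, and transgenic 11 has low Bmp2 at a level of 11.66.

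The promoters of Bmp4 and Cd34 are shown because these were the members whose slope on the hair keratin level was called, in opposite directions. The RefSeq table of promoters (build GRCm38.p6) held 3 of the 6 genes, Lgr6, Cd34 and Bmp4. Each window runs 5' to 3' along the gene from 250 bases before to 50 after its start, and capitals mark matches to 5 motifs on either strand. The TATA box was searched for as TATAAA. The GC box was searched for as GGGCGG. The CCAAT box was searched for by the letters of its name. The core of LEF/TCF binding sites was searched for as CTTTGAA. The E box was searched for as CACGTG. The Bmp4 window lies at chr14:46390620-46390919 on the minus strand and the Cd34 window at chr1:194938571-194938870 on the plus strand.
Bmp4: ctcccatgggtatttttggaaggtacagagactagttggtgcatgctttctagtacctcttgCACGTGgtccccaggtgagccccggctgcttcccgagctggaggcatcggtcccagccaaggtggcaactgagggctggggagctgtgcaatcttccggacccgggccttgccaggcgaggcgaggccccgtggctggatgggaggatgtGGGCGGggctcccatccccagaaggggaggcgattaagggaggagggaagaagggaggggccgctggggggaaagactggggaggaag
Cd34: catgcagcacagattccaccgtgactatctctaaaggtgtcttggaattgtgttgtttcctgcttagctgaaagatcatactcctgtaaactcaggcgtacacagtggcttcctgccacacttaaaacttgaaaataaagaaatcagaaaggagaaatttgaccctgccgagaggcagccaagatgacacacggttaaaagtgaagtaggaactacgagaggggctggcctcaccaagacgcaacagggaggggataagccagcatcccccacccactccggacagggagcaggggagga
The Bmp4 window held 1 GC box at bases 213 to 218 and 1 E box at bases 63 to 68, and the Cd34 window held no match to the 5 motifs. Of all 32851 promoters in the table, 35.7% held a GC box, 7.15% the E box, 13.6% a TATA box, 37.4% a CCAAT box and 5.14% the LEF/TCF core. GC content was 64% in the Bmp4 window and 50% in that of Cd34, with a median of 52.7% over all promoters. A match describes the letters and is not a site shown to be bound.

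In the 2 animals with low hair keratins the mean levels of the endothelial, fibroblast, mast cell and keratinocyte lists stood high beside Cd34. Those of the skeletal muscle and adipocyte lists did not. Wildtype 26 and transgenic 17 had the highest mean log2 levels of the 7 animals for endothelial genes (9.36 and 9.04, against 8.63 to 8.85 in the others, 12 of 12 measured), for fibroblast genes (13.46 and 13.40, against 12.69 to 13.18, 10 of 11 measured) and for mast cell genes (8.91 and 9.71, against 8.12 to 8.83, 8 of 9 measured). The keratinocyte genes did the same (14.00 and 13.96, against 13.44 to 13.86). Skeletal muscle genes (12.96 and 13.10, against 12.41 to 13.34) and adipocyte genes (11.88 and 12.53, against 11.46 to 12.63) did not. Not every gene followed the mean of its list. Krt1, of the keratinocyte list, was 13.96 in wildtype 26 and 13.71 in transgenic 17, against 11.74 to 12.86 in the others. Trp63, of the same list, was lowest in these animals, at 11.90 and 11.96, against 12.12 to 12.58. Cpa3, of the mast cell list, was 11.13 in wildtype 26, below transgenic 7 and 84 at 11.57 and 11.55. Pdgfra, of the fibroblast list, was 11.55 and 11.40, against 11.13 to 12.04. By group the endothelial mean ranged from 8.68 to 9.04 in transgenic and from 8.63 to 9.36 in wildtype animals, the fibroblast mean from 13.10 to 13.40 and 12.69 to 13.46, and the mast cell mean from 8.57 to 9.71 and 8.12 to 8.91. Pecam1, an adhesion protein of endothelium, was 9.67 in wildtype 26 and 9.04 in transgenic 17, and 7.65 to 8.68 in the others, and its slope on the hair keratin level was -0.20 (adjusted p = 0.0585). Cdh5, the cadherin of endothelial junctions, had a slope of -0.11 (adjusted p = 0.261). Lower slopes were called in 0 of 12 endothelial, 1 of 8 mast cell, 1 of 10 fibroblast and 2 of 6 keratinocyte genes, against 2.33% of all 13559 genes. No lower slope was called in any of these lists without transgenic 17, and none without wildtype 26. The median slopes were -0.10, -0.13, -0.07 and -0.04, against -0.01 over all genes. The part of these cell types in the Cd34 values was not tested.

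The other genes of the BMP pathway gave no call between the groups. Of 54 listed genes 44 had a probe set past the filter, of which the brightest was taken. Of these 22 lay above 0 and 22 below, with a median log2 difference of 0.00 against 0.05 over all genes. limma called 0 of the 44, and 0% of 13559 genes. Before adjustment 1 was higher and 2 were lower at p under 0.05, where 4.4% of all genes were higher and 4.6% lower.

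Among the other ligands Bmp7, which also acts in the follicle, gave a log2 difference of 0.36 and Bmp6 gave 0.05. Of the receptors Bmpr1a and Bmpr1b, type I receptors, gave 0.14 and 0.09, Acvr1, another type I receptor, -0.02, and Bmpr2, a type II receptor, 0.23. Bmpr2 was 12.42 to 12.78 in transgenic and 12.29 to 12.38 in wildtype animals, with no overlap (limma adjusted p = 0.52), as in 11.3% of all probe sets tested. Of the antagonists Sostdc1, a secreted inhibitor of BMP and Wnt signalling, stood at 11.41, 11.08, 10.26 and 11.55 in transgenic 7, 11, 17 and 84, and at 10.10, 10.14 and 10.53 in wildtype 26, 28 and 29. Its difference of 0.82 (adjusted p = 0.371) was the 1 that was higher before adjustment. Chrd, Fst and Grem1, which bind the ligands or related ones, gave -0.10, -0.01 and -0.21.

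Of the SMAD proteins, Smad1 and Smad5 carry the BMP signal with Smad4 while Smad6 and Smad7 inhibit it. Smad5 gave -0.60 (limma adjusted p = 0.416) and, with Id1, was lower before adjustment. Smad1, Smad4, Smad6 and Smad7 gave 0.22, 0.17, -0.95 and -0.17. Of the target genes Id1, an inhibitor of basic helix-loop-helix factors, was 8.82, 10.17, 9.43 and 9.44 in transgenic 7, 11, 17 and 84, and 10.03, 10.17 and 10.71 in wildtype 26, 28 and 29. As in Lgr5, transgenic 7, 17 and 84 were below each wildtype animal and transgenic 11 was not, and the log2 difference was -0.84 (limma adjusted p = 0.373). Smad5 did the same, at 8.76, 9.21 and 9.15 in transgenic 7, 17 and 84 and 9.81 in transgenic 11, against 9.56 to 10.07 in wildtype animals. Transgenic 7, 17 and 84 had the highest Gapdh ratios, 4.68 to 17.2. The part of the ratio in these values was not tested. Id2, Id3 and Id4, relatives of Id1, gave 0.12, -0.37 and -0.03, and the homeobox targets Msx1 and Msx2 gave 0.15 and -0.17.

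Along the hair keratin level 5 of the 44 pathway genes had a called higher slope and 3 a called lower one, against 3.85% and 2.33% of all genes. Msx2, a homeobox factor of the hair matrix, had a slope of 0.73 (SE 0.08, adjusted p = 0.00132). It measured 7.16 in wildtype 26 and 7.05 in transgenic 17, and 10.42 to 11.37 in the other animals. Bambi, a decoy receptor that dampens BMP signalling, had a slope of 0.64 (SE 0.04, adjusted p = 4.97e-05), with 7.78 and 8.36 in those 2 animals and 10.44 to 11.73 in the rest. Dlx3, a homeobox factor of the hair matrix and a BMP target, had 0.48 (adjusted p = 0.0283), Smad6 0.29 (0.0375) and the ligand Bmp8a 0.27 (0.0155). Lower slopes were called for Nbl1, an antagonist of the DAN family, at -0.25 (0.00673), Htra1, a secreted protease, at -0.14 (0.0477) and Fstl1, a follistatin-like protein, at -0.11 (0.0477). Bambi, Msx2 and Dlx3 were also called both without transgenic 17 and without wildtype 26. Nbl1 was called without transgenic 17 alone, and the other 4 in neither of these fits.

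**Figure D5:**
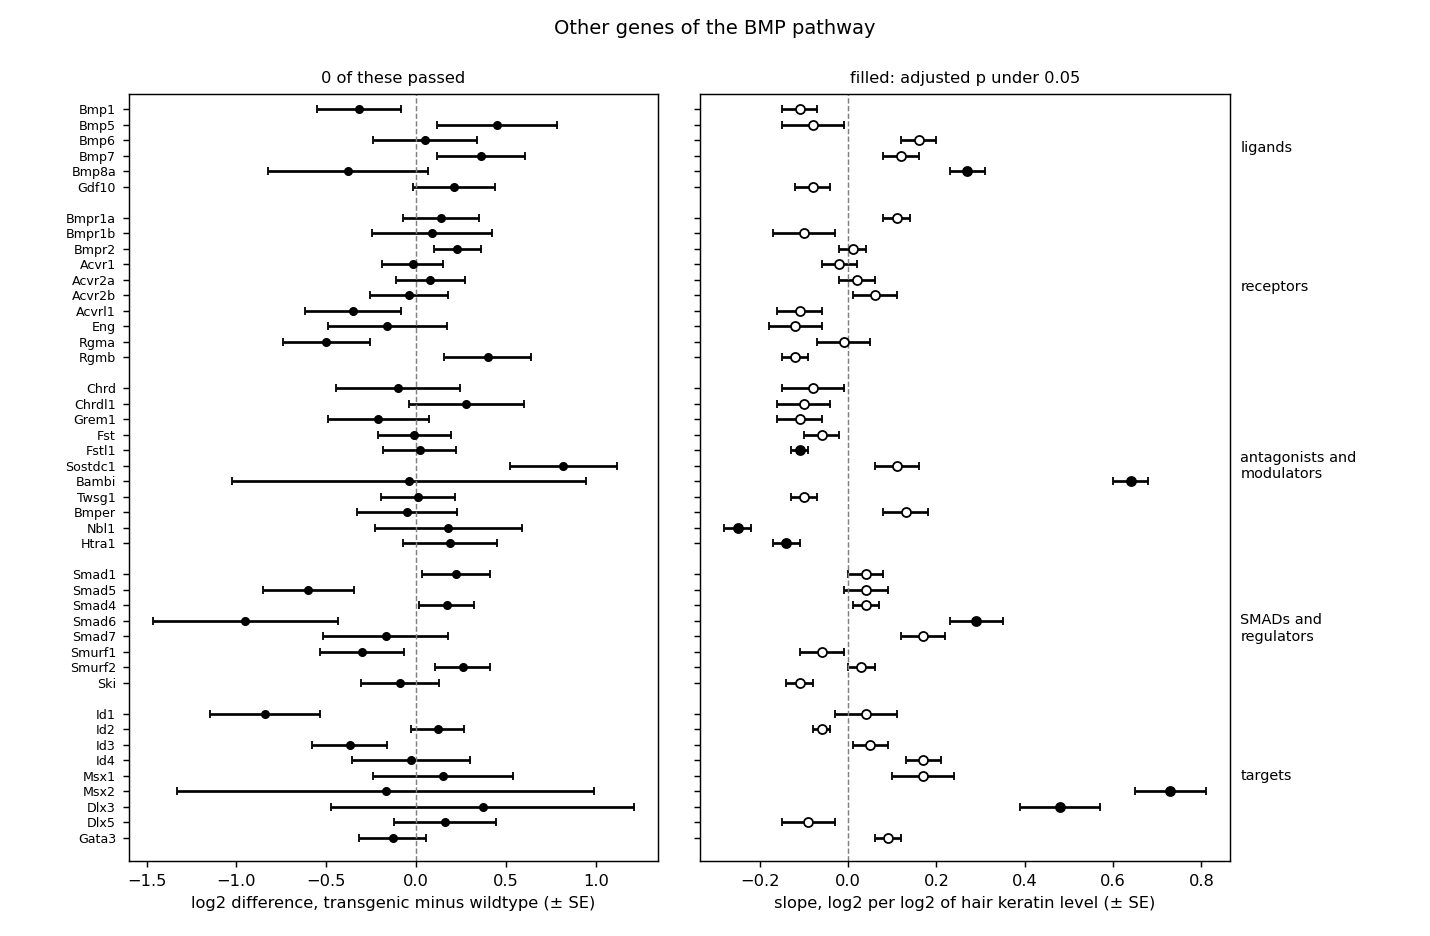
Other genes of the BMP pathway by role, 1 probe set per gene: left, log2 difference of transgenic minus wildtype animals; right, slope on the hair keratin level with group in the model (points ± SE, 7 animals; filled where the adjusted p was under 0.05). None is called on the left, and Msx2, Bambi and Dlx3 have the largest slopes on the right, 0.73, 0.64 and 0.48. The ligand group also holds Bmp1, which is a protease.

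Genes that work with the LGR receptors and other follicle stem cell genes likewise gave no call between groups. In the list of R-spondins and LGR partners 8 of 10 genes were measured and 7 lay above 0, where 7635 of all 13559 genes did. The list had a median log2 difference of 0.11, with 0 past the unadjusted threshold. Lgr4, the third receptor of the family, gave 0.08, the R-spondins Rspo1 and Rspo3 gave 0.35 and 0.50, and the ligases Znrf3 and Rnf43, which remove Wnt receptors and are held back by R-spondin, gave 0.15 and -0.68. Rspo3 was 7.97 to 8.79 in transgenic and 7.60 to 7.95 in wildtype animals, with no overlap (limma adjusted p = 0.46). Of all probe sets tested 11.3% had no overlap. None of the 8 had a called slope on the hair keratin level.

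In the list of other follicle stem cell genes 20 of 21 were measured, with a median of 0.03 and 0 called. Before adjustment Npnt, an integrin ligand of the bulge matrix, was higher (0.58) and Sox9 and Prdm1 were lower. Krt15, a keratin of the bulge and basal layer, gave 0.29, Lhx2, a homeobox factor of bulge and germ, -0.07, and Nfatc1, a factor of resting bulge cells, 0.14. Sox9, a factor of bulge and outer root sheath, gave -0.65 (limma adjusted p = 0.417), with Lrig1 and Tcf7l1 at -0.10 and -0.07. A higher slope was called in 1 of the 20, close to the 3.85% over all genes. This was Lhx2, at 0.25 (adjusted p = 0.0468). It was 9.71 in transgenic 17 and 10.25 in wildtype 26, and 11.17 to 11.47 in the other 5 animals. It was called without wildtype 26 but not without transgenic 17.

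The dermal papilla list, which covers the dermal cells at the follicle base where Bmp4 and Nog are made, had -0.13 as its median difference over 12 genes with 0 called and 0 past p of 0.05 before adjustment, and 2 called higher slopes, of Corin and Lef1, against 3.85% of all genes. Corin was not called without wildtype 26. Regulators of the growing follicle had a median of -0.13 over 9 genes with 0 called and likewise 0 before adjustment, and 8 of the 9 had a called higher slope on the hair keratin level, against 3.85% of all genes, 7 of them without transgenic 17 and 5 without wildtype 26. Msx2, Dlx3 and Lef1 are in this list too. Adipocyte genes, whose cells are a source of Bmp2 in skin, lay above 0 in 7 of 7 measured (median 0.49, 0 called, 5 higher before adjustment, where 7635 of 13559 genes lay above 0 and 4.4% were higher before adjustment), with list means of 12.07 to 12.63 in transgenic and 11.46 to 11.88 in wildtype animals, while Bmp2 stood at -0.12. The medians were 0.53 for mast cell, 0.09 for fibroblast, -0.06 for endothelial, 0.25 for skeletal muscle and 0.08 for keratinocyte genes, with 0 called in each. Before adjustment 1 mast cell, 2 fibroblast and 2 skeletal muscle genes were higher, of 8, 10 and 10 measured and against the same 4.4%, and none of the endothelial or keratinocyte genes passed.

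Over the 7 animals the genes whose levels were most like those of a member, by Pearson r, were Igfbp4, Scd2 and Smpd2 for Lgr5 (1450988_at; r = 0.993 for each) and Phip, Slc38a9 and Cep295 for Lgr6 (1436218_at; 0.98, 0.973 and 0.969). For Cd34 they were C1qc, a complement chain made by macrophages, Plxnd1, a semaphorin receptor of endothelium, and Ptprcap, a protein of leukocytes (0.995, 0.991 and 0.99). For Bmp2 they were Urah, Ttc37 and Mrpl39 (0.992, 0.988 and 0.987), and for Bmp4 they were Emp2, Mtmr3 and Cpsf4l (0.982, 0.979 and 0.979). These are the highest among the probe sets past the filter that have 1 symbol. They rest on 7 points that share arrays and RNA quality, and they carry no test. Between the members themselves r was 0.72 for Bmp2 with Bmp4, -0.84 for Cd34 with Bmp2 and -0.56 for Cd34 with Bmp4, while Lgr5 (1450988_at) had 0.24 with Cd34 and 0.57 with Bmp4.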

How the data were processed

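Belly skin RNA of 7 mice was measured on 8 arrays. What was deposited is signal intensity, made by the authors with MAS5 per the submitters' processing notes (version not given), on a linear scale. Array annotation gave 1 symbol for 34945 of 45037 probe sets, and those with several (932) or none (9160) were not named.

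Log2 of intensity plus 21.8 (the 20th percentile) was used, with the arrays of wildtype 29 averaged. Probe sets with a mean below the 40th percentile (6.45) were left out, which left 27022. The group comparison used limma (version 3.58.1, R 4.3.3; empirical Bayes with trend, 2-sided, Benjamini-Hochberg over all probe sets tested, threshold 0.05), and slopes on the hair keratin level with group in the model. Replicates are separate animals. Single values used exact permutation over animals, and correlations all 5040 orders of the 7 animals. Lists were described by counts, and used the brightest probe set of each gene. The fits were tested on simulated data. A group shift of 1 log2 was recovered in 13.5% of shifted probe sets and a shift of 2 in 76.5%. For the slope, shifts of 1 and 2 over the whole range of the level were recovered in 0% and 35.5%.

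Named were the member probe sets, a fixed set of pathway genes, list genes called between groups, and the 3 genes most correlated with each member. Nbl1, Htra1, Fstl1, Dlx3, Bmp8a, Bmp1, Corin, Lef1, Npnt, Prdm1, Krt1, Trp63, Cpa3 and Pdgfra fall outside this rule and were named after their values were seen. The promoters shown and the motifs searched were likewise chosen afterwards. The members and lists were chosen with earlier results of these data known. Krt85, Bmp3, Gdf6, Gdf7, Runx2, Ly6a and Plin1 had no probe set with 1 symbol and were not analysed here. Figures used Python 3.11.15 with matplotlib 3.10.9.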

Additional observations from a re-analysis of the deposited data

Results flagged for a closer look

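In Lgr5 (1450988_at) transgenic 11 stood apart from the other transgenic animals, at 10.02 against 8.82 to 9.01. The gap was 0.837 of the group's range, above the 95% critical value of Dixon's test for 4 samples, which chance passes in about 1 of 20 groups. This was the 1 of 8 member probe sets that passed. The Gapdh ratio was 1.45 for transgenic 11 and 4.68 to 17.2 for the other 3. With that ratio in the model the group difference of Lgr5 was 0.09, but the ratios of the groups did not overlap. This fit therefore cannot cleanly separate the ratio from group.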

How the results depend on the processing

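Member probe sets were called in 0 of 22 alternatives. Lgr6 (both probe sets), Bmp4 and Nog kept the sign of their group difference in all 22, with ranges of 0.09 to 0.41 for 1436218_at, -0.67 to -0.33 for 1427028_at, -0.70 to -0.15 for Bmp4 and 0.20 to 0.91 for Nog. After adjustment for the Gapdh ratio Lgr5 turned to 0.09 (1450988_at) and -0.66 (1444519_at) and Cd34 to 0.26, and Bmp2 was -1.07. The ratio did not overlap between the groups, so this fit cannot cleanly separate it from group. Without transgenic 7 and 84, 1450988_at was -0.39, 1444519_at -0.51, Cd34 0.09 and Bmp2 -0.70, and with sex as a covariate 1444519_at was -0.04. With 1 animal left out in turn the difference ran from -0.95 to -0.54 for 1450988_at, from -0.25 to 0.41 for 1444519_at, from -0.55 to 0.03 for Cd34 and from -0.53 to 0.12 for Bmp2.

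Over the whole table the 4 calls became 10 with 4 times the pseudocount, 2 with the filter at the 60th percentile, 11, 37 and 0 after adjustment for sex, the hair keratin level and the Gapdh ratio in turn, 9 with the second array of wildtype 29, 44 with 8 arrays as separate samples, and 0 to 269 with 1 animal left out. Calls of a slope on the hair keratin level ran from 179 to 2236 with 1 animal left out, an alternative chosen after seeing the data. The slopes then ran from -0.25 to -0.16 for Cd34, 0.16 to 0.27 for Bmp4, 0.19 to 0.28 for Bmp2 and -0.07 to 0.10 for Lgr6 (1436218_at). Without transgenic 17 and wildtype 26 together the level spans little and the slopes rest largely on transgenic 11. In that fit 719 slopes were called, with -0.94 for Cd34, 0.07 for Bmp4, 1.69 for Bmp2, -1.49 for Lgr5 (1450988_at) and -0.01 for Lgr6 (1427028_at). With the mean over a gene's probe sets the median difference of the list of other BMP ligands moved from 0.13 to -0.17. This list also holds Bmp1, which is a protease and not a ligand. The causes were not tested. No paired analysis was possible because the groups share no replicate numbers.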
